A study of Mus musculus with 6 samples.

Results

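The 35 genes described here are cell cycle genes, chosen by name from the 16158 genes with a column in all 6 libraries, and every one of them had such a column. They comprise 24 genes of the G2 and M phases (Mki67, Top2a, Cdc20, Anln, Aspm, Cenpf, Cenpa, Hmmr, Ccnb1, Ccnb2, Ccna2, Cdk1, Birc5, Tpx2, Ube2c, Plk1, Aurka, Aurkb, Bub1, Nusap1, Kif11, Kif23, Prc1 and Cks2), 10 genes of S phase (Mcm2 to Mcm7, Pcna, Tyms, Rrm1 and Rrm2) and Stmn1, which was kept apart because it is also expressed outside the cycle. Single-cell transcriptomes came from the skin of 6 NINJA mice, whose cells can be induced to express a neoantigen, aged 6 to 12 weeks. The area of skin analysed had received 4-OH-Tam in every group, NO_AG included. The NO_AG mice had antigen off, the AG mice antigen on, and the AG_CPI mice antigen on together with CPI, with 2 mice in each group. Per the labels' protocols, visible skin disease and the infiltration of P14 cells, CD8 T cells with a transgenic receptor, had been examined in each mouse before sequencing. The labels do not expand CPI.

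Dividing cells copy their DNA in S phase and segregate it in M phase, and different genes are transcribed at each step. Transcription of S phase genes rises when E2F factors are released at the end of G1, and it supplies the MCM helicase, the clamp PCNA and the enzymes that make deoxynucleotides. Genes of G2 and M are held back until later by the DREAM complex and are then induced by B-MYB and FOXM1, through CHR elements and CCAAT boxes near their starts. In skin, cycling is a normal property of basal keratinocytes and of the growing hair follicle, while T cells cycle after they meet antigen.

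The RefSeq promoter table (build GRCm38.p6) held a window for 30 of the 35 genes, 21 of the G2/M and 9 of the S genes. The 250 bases before the start were searched on both strands for the CHR letters TTTGAA, the CCAAT box letters CCAAT and the E2F letters TTTCCCGC or TTTGGCGC. A CHR match was found in 8 of 21 G2/M genes (38.1%) and in 1 of 9 S genes, against 16.0% of all 32851 windows. A CCAAT match was found in 18 of 21 G2/M genes and in 8 of 9 S genes, against 33.8% of all windows. An E2F match was found in 0 of 21 G2/M genes and in 3 of 9 S genes, against 1.30% of all windows. These are matches of letters and not binding sites. Genes with several windows, such as Prc1 and Mcm7, counted if any window matched. The share of all windows counts each window singly, so the rates of the genes are favoured. The windows of 5 genes are shown because they hold examples of these motifs in G2/M and in S genes; whether the gene groups differ in them was not tested. They are written 5′ to 3′ on the strand of the gene, with CHR, CCAAT and E2F matches of either strand in capitals.
Cdc20, chr4:118437344-118437593, minus strand: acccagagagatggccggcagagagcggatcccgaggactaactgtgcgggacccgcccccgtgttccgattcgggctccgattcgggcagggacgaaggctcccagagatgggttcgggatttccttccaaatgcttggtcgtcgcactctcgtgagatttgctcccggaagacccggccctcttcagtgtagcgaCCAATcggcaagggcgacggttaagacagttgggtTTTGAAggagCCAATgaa
Top2a, chr11:99024190-99024439, minus strand: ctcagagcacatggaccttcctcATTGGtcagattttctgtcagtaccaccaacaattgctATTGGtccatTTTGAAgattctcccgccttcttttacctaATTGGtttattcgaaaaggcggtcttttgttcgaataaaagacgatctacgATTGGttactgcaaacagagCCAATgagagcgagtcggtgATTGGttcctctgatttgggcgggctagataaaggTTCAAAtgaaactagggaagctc
Mki67, chr7:135716380-135716629, minus strand: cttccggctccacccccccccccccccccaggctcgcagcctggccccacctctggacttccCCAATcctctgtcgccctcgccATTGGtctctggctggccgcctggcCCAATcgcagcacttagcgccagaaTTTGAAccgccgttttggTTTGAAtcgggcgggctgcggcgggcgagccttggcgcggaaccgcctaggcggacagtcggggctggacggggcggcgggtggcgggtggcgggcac
Mcm5, chr8:75109259-75109508, plus strand: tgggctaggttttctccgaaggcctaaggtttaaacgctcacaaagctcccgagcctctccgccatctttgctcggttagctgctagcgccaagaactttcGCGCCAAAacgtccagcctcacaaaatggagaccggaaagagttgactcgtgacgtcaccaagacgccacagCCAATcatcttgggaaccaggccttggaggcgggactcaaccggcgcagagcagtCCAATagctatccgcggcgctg
Mcm6, chr1:128359706-128359955, minus strand: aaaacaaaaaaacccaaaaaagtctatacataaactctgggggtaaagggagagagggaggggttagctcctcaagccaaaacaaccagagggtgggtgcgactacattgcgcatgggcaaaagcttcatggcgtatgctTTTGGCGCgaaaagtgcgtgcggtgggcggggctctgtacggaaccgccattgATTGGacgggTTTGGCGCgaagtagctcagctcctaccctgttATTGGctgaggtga
The Cdc20 window holds 1 CHR match, 18 to 13 bases before the start, and the Top2a window holds 2, the nearer of them 23 to 18 bases before it. The Mcm5 window holds an E2F match 149 to 142 bases before the start, and the Mcm6 window holds 2. No CHR letters were found in the Mcm5 and Mcm6 windows, and no E2F letters in those of Cdc20, Top2a and Mki67.

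The libraries held 1736 to 4972 cells and 5903724 to 24656382 UMIs (unique molecular identifiers, which count transcripts), and each cell had 1501 to 14995 UMIs. Cells were clustered without the 35 genes and without 103 other listed cell cycle genes. Of 48 clusters 34 received a name, which came from cell type markers except for cluster 7. No cluster could be named gamma-delta T-like from those markers, so cluster 7, led by Trdv4, Cd7, Avil, Trat1 and Xcl1, is called the Trdv4-led cluster. Among alpha-beta T-like cells, those with Cd8a or Cd8b1 UMIs but no Cd4 UMI are called CD8 T cells, and CD4 T cells are the reverse. Cells are not replicates, and groups were compared over the 2 mice of each. Levels below are mean UMIs per 10000 UMIs of a cell, as the average of each class in each mouse. Shares are percentages of cells with UMIs of at least 2 different G2/M (or S) genes after each cell was thinned to 1500 UMIs, and carry Wilson 95% intervals for counting error only. AG 2 stood apart from the other mice in its G2/M share over all cells, which was 39.2%, against 11.8% to 22.2% in the other 5 mice, and cluster 10, led by Krt6b, Krt16 and Krt6a, held 1063 cells of which 1009 came from AG 2. In AG_CPI 1, 16.0% of the 513 cells outside the alpha-beta T-like clusters had a UMI of the Y-linked gene Ddx3y, while no such cell was found in the other 5 mice. Xist, which is expressed from the inactive X chromosome, had a UMI in 2.14% of these cells of AG_CPI 1 and in 66.4% to 84.9% of those of the other mice, so AG_CPI 1 appears to differ from them in sex, and the part of sex in its values was not tested. Of 20921 cell barcodes, 255 occurred in 2 or more libraries.

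The share of cycling cells varied widely between mice in keratinocytes and sebaceous-like cells, and was lowest in macrophages among the classes averaged. Over mice with at least 30 cells of the class, the G2/M share averaged 23.5% ± 16.9 (SD, n = 6) in keratinocyte-like cells, 19.2% ± 7.17 (SD, n = 6) in CD8 T cells and 18.2% ± 6.12 (SD, n = 5) in CD4 T cells. Sebaceous-like cells averaged 27.4% ± 17.4 (SD, n = 4), with 37.1% and 24.2% in NO_AG, 43.8% in AG 2 and 4.35% in AG_CPI 2. These neighbouring averages differ by less than their spread between mice. The average was 6.72% ± 4.98 (SD, n = 4) in the Trdv4-led cluster, 7.26% ± 4.69 (SD, n = 4) in ILC2-like cells, 6.65% ± 1.18 (SD, n = 5) in dendritic/Langerhans-like cells and 1.34% ± 1.41 (SD, n = 4) in monocyte/macrophage-like cells. The macrophage value serves as the background of a class in which few cells should cycle, at a median of 3555 to 6882 UMIs per cell before thinning. Without thinning it was 3.94% to 15.4% in these 4 mice. Endothelial-like cells had a G2/M share of 0% of 37 cells in NO_AG 1 (Wilson upper bound 9.41%, and 8.11% at the limit of 3 counts) and of 54.2% of 48 cells in AG 2. In the highest class, melanocyte/Schwann-like cells, it was 77.1% of 70 cells in AG 2 and 7.69% and 7.84% in the NO_AG mice.

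**Figure D1:**
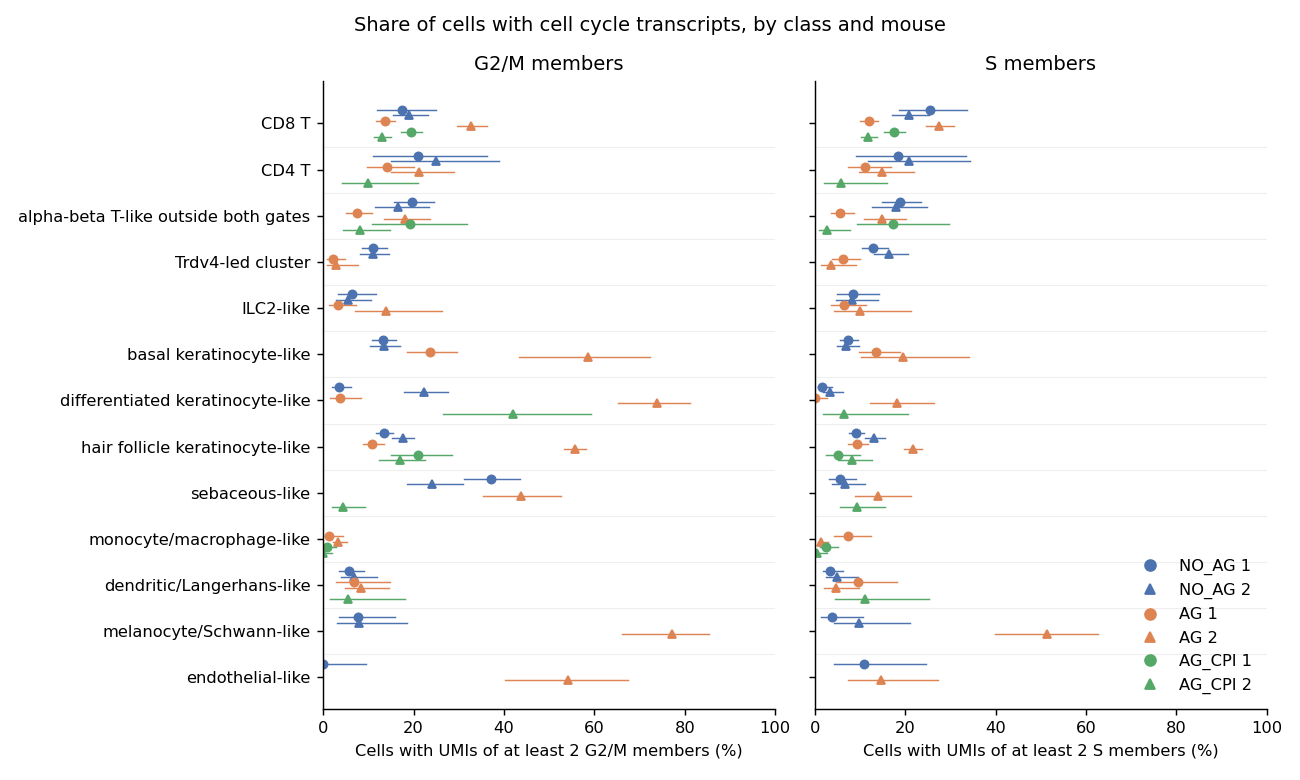
Percentage of cells with UMIs of at least 2 G2/M genes (left) or S genes (right) after thinning, by cell class (rows), with Wilson 95% intervals; colours are groups, circles are replicate 1 and triangles replicate 2, and only mice with at least 30 cells of a class are drawn. AG 2 lies apart in the keratinocyte-like, melanocyte/Schwann-like and endothelial-like classes, and the macrophages lie at or below 3.31% for G2/M.

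S genes were seen in about as many CD8 T cells as G2/M genes. Their S share averaged 19.2% ± 6.65 (SD, n = 6), and in keratinocyte-like cells it averaged 10.2% ± 5.69 (SD, n = 6). The S share lay below the G2/M share in all 6 mice in keratinocyte-like cells and in 4 of 6 mice in CD8 T cells. Without thinning, keratinocyte-like cells of NO_AG 1 had an S share of 27.1% and a G2/M share of 21.0%, so no order of the phases is read from these shares. Over the 58 means of a mouse and a class, from 14 classes, the average log2 level of the G2/M genes and that of the S genes had a Spearman correlation of 0.76. These means share libraries and depth, so the value is a description. The G2/M genes nearest to their own average were Ube2c (0.96), which marks mitotic proteins for destruction, Cenpf (0.95), a kinetochore protein, and Birc5 (0.95), a subunit of the chromosomal passenger complex. That average contains each of them, which favours a high value. Pcna, the clamp of DNA polymerase, was the farthest of the 35 genes from the G2/M average, at 0.44. It is an S gene outside that average, and its correlation with the S average, which contains it, was 0.76. The 5 genes outside the lists most like the G2/M average were Prr11 (0.88), Cep55 (0.87), Esco2 (0.86), Mxd3 (0.85) and Shcbp1 (0.85).

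The share of cells with an Mki67 UMI, which encodes the proliferation antigen Ki-67, was compared between 6 pairs of classes within mice. It averaged 10.9% in CD8 T and 1.67% in monocyte/macrophage-like cells, and CD8 T was higher in 4 of 4 mice (two-sided exact sign-flip permutation test, p = 0.125, adjusted p = 0.375 over the 6 pairs). It averaged 12.4% in CD8 T cells and 4.56% in the Trdv4-led cluster of the NO_AG and AG mice, again higher in 4 of 4 mice (exact p = 0.125, adjusted p = 0.375). With 4 mice 0.125 is the smallest p this test can give. CD8 T and CD4 T cells differed by less than their spread, at 11.4% and 12.0% (difference -0.59 percentage points, SD 4.10, n = 5, exact p = 0.938, adjusted p = 1). CD8 T and basal keratinocyte-like cells averaged 12.4% and 12.8% (n = 4, exact p = 0.875, adjusted p = 1). Basal and differentiated keratinocyte-like cells averaged 12.8% and 9.62% (n = 4, exact p = 0.375, adjusted p = 0.75). The second class differed in makeup between mice: in AG 2, 101 of its 115 cells were of cluster 38, whose leading genes Tchh, Krt71 and Krt27 are known from the inner root sheath of the hair follicle, and in NO_AG 2, 58 were of cluster 6, which shares Clca3a2, Igfbp3 and Ndufa4l2 with the leading genes of basal cluster 1. Foxp3 CD4 T and other CD4 T cells averaged 8.35% and 9.04% in the 2 AG mice, where an exact test cannot go below 0.5. For Top2a, which encodes the topoisomerase that untangles sister chromatids, the smallest adjusted p of the same 6 pairs was 0.25. Unlike Mki67, Top2a was seen in more CD8 T than basal keratinocyte-like cells in 4 of 4 mice, at 14.7% and 10.6% (exact p = 0.125, adjusted p = 0.25).

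In CD8 T cells, no member passed the test in any comparison of the groups, and AG 2 was the highest mouse for 23 of the 35 genes, against 12.6% of all genes tested. The G2/M share was 17.5% of 126 cells and 19.0% of 384 cells in NO_AG mice, 13.6% of 975 and 32.8% of 769 in AG mice, and 19.5% of 1118 and 12.9% of 1213 in AG_CPI. The AG mice lay on either side of the NO_AG mice, and the interval of AG 2 (29.5% to 36.2%) overlapped that of no other mouse. CD8 T cells were gated from alpha-beta T-like clusters whose makeup differed between groups. Before gating, cluster 4, led by Gzmc and Cd160, held 410 and 528 cells of NO_AG mice, 610 and 281 of AG mice, and 53 and 85 of AG_CPI. Cluster 12, led by Gzma and Cd8b1, held 5 and 6, 150 and 178, and 745 and 675 in the same order. The part of this difference in the values below was not tested. Mki67 was at 2.06 and 1.66 UMIs per 10000 in NO_AG mice, 0.63 and 1.60 in AG mice, and 1.25 and 1.04 in AG_CPI. All 4 mice with antigen on lay below both NO_AG mice, by 0.68 on the log2 scale for AG (SE 0.31, limma adjusted p = 0.312). After thinning, the share of cells with an Mki67 UMI was 11.1% and 14.3% in NO_AG mice, 6.67% and 17.6% in AG mice, and 11.8% and 7.58% in AG_CPI, so that AG 2 was the highest mouse and the groups overlapped. Top2a was at 1.96 and 2.16 in NO_AG mice, 0.78 and 2.38 in AG mice, and 1.90 and 1.23 in AG_CPI, so its groups overlapped. Ccnb1, which encodes the cyclin that drives entry into mitosis, ranged from 0.10 to 0.32.

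Cenpa, which encodes the histone variant that marks centromeres, had the smallest p of the members for AG against NO_AG. Its level was 0.71 and 0.83 UMIs per 10000 in NO_AG mice, 1.14 and 2.2 in AG mice, and 1.29 and 0.91 in AG_CPI. Both AG mice lay above both NO_AG mice (log2 fold change 1.08, SE 0.27, limma adjusted p = 0.0578). Prc1, a microtubule bundling protein of the anaphase spindle, was at 0.86 and 0.72 in NO_AG and 0.22 and 0.76 in AG (log2 fold change -0.65, SE 0.36). Of the S genes Mcm6, Mcm4 and Mcm3, subunits of the replicative helicase, had the smallest p, with log2 fold changes of 0.51, -0.30 and 0.25. Mcm5 was at 0.65 and 0.40 in NO_AG mice, 0.42 and 0.73 in AG mice, and 0.41 and 0.34 in AG_CPI. Pcna ranged from 0.835 to 1.496 with overlapping groups. Rrm2, the regulated subunit of ribonucleotide reductase, ranged from 0.45 to 1.19, with both AG_CPI mice below both NO_AG mice.

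Stmn1 encodes stathmin, which destabilises microtubules and is abundant in proliferating lymphocytes. In CD8 T cells it was at 5.06 and 5.65 UMIs per 10000 in NO_AG mice, 3.06 and 6.06 in AG mice, and 3.41 and 2.35 in AG_CPI. Both AG_CPI mice lay below both NO_AG mice (log2 fold change -0.77, SE 0.27, limma adjusted p = 0.146). The same order held for 18 of the 35 genes and for 29.9% of all genes tested, among the members Rrm2 (log2 fold change -0.65), Mcm4 (-0.60), Prc1 (-0.71) and Aurkb (-0.55), the kinase of the chromosomal passenger complex. Tyms, which makes thymidylate, had a log2 fold change of -0.47 and Cenpa one of 0.55 in the same comparison. For AG_CPI against AG the log2 fold changes were -0.50 for Aurkb, -0.53 for Cenpa, -0.57 for Ube2c, -0.55 for Rrm2, -0.51 for Tyms and -0.56 for Mcm6. Some marker lists also differed between NO_AG and AG_CPI in CD8 T cells. The 16 dendritic/Langerhans markers summed to 2.93 and 3.19 in NO_AG and 1.09 and 1.52 in AG_CPI. The 11 basal keratinocyte markers summed to 2.76 and 2.04 and to 1.42 and 1.73. The 15 alpha-beta T markers were higher in AG_CPI, at 78.9 and 88.7 and at 104.7 and 107.9. The differentiated keratinocyte and monocyte/macrophage lists overlapped between these groups. The part of these markers was not tested.

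limma called 0 of the 34 members tested in CD8 T cells for AG against NO_AG, where 222 of 7399 genes were called (3%). It called 0 for AG_CPI against AG (all genes 0.108%) and 0 for AG_CPI against NO_AG (all genes 4.42%). At an unadjusted p under 0.05 there were 1, 1 and 3 members in these comparisons, against 16.2%, 5.49% and 18.3% of all genes. The median log2 fold change of the members was -0.01, -0.28 and -0.26, and that of all genes 0.03, 0.01 and 0.04. After thinning, the members' medians were -0.14, -0.24 and -0.34. Single mice decided these values. For AG against NO_AG the median was 0.38 without AG 1 and -0.36 without AG 2. When AG_CPI was compared with AG it was -0.76 and 0.10 without these mice, -0.50 without AG_CPI 1 and -0.04 without AG_CPI 2. When AG_CPI was compared with NO_AG it was -0.51 without AG_CPI 1 and -0.01 without AG_CPI 2. Without AG 2, Mki67, Prc1 and Top2a passed as lower in AG than in NO_AG (1.23% of all genes called), without AG 1 Cenpa passed as higher (3.39%), and without AG 1 or AG 2 Stmn1 passed as lower in AG_CPI than in NO_AG (5.80% and 5.65%). With the replicate number as a block Cenpa also passed (2.93% of all genes called), and with only the 2 groups compared in the fit Stmn1 passed for AG_CPI against NO_AG (5.57%). The AG and AG_CPI comparisons share control samples, so their values are not independent.

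CD8 T cells with a UMI of Trbv13-3, the beta segment of the P14 receptor, had higher levels of nearly all G2/M genes than CD8 T cells with another beta segment in 3 mice, and no higher level of any member in AG_CPI 2. The S genes followed in AG 1 and AG 2 but not in AG_CPI 1. Host T cells can use the same segment, and in NO_AG 2 and 12 CD8 T cells had such a UMI, too few to compare. The G2/M share was 19.2% of 473 cells with Trbv13-3 and 7.92% of 366 cells with other segments in AG 1, 38.3% of 460 and 20.3% of 128 in AG 2, and 21.5% of 651 and 12.5% of 136 in AG_CPI 1. In AG_CPI 2 it was 10.6% of 818 and 22.4% of 196. The level was higher with Trbv13-3 for 33 of 35 genes in AG 1, 33 in AG 2 and 29 in AG_CPI 1, and for 0 of 35 in AG_CPI 2. In AG_CPI 1 these were all 24 G2/M genes, 4 of the 10 S genes and Stmn1. The S share with and without Trbv13-3 was 14.6% and 9.56% in AG 1, 30.9% and 19.5% in AG 2, 16.0% and 20.6% in AG_CPI 1, and 11.9% and 15.3% in AG_CPI 2. Cdc20, the activator of the anaphase-promoting complex, was at 0.35 and 0.14 UMIs per 10000 with and without Trbv13-3 in AG 1, 0.53 and 0.13 in AG 2, 0.34 and 0.07 in AG_CPI 1, and 0.17 and 0.27 in AG_CPI 2. For Cenpa the corresponding pairs were 1.70 and 0.49, 2.86 and 0.98, 1.54 and 0.63, and 0.77 and 1.37.

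Depth moved with this pattern in part. The cells with Trbv13-3 had a median of 3430 UMIs against 2436 in AG 1, 3358 against 2170 in AG 2, 2343 against 2376 in AG_CPI 1, and 2738 against 3052 in AG_CPI 2. The shares above were taken after thinning to 1500 UMIs, and with the levels thinned in the same way the members' median log2 fold change was 0.39, against 0.38 unthinned.

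Paired within the 4 mice, all 34 members tested had a log2 fold change above 0, with a median of 0.38 against 0.04 over all genes. The medians were 0.45 for the G2/M genes and 0.13 for the S genes. limma called 0 of 34 members, where 33 of 7633 genes were called (0.432%), and 5 members had an unadjusted p under 0.05 against 7.87% of all genes. These were led by Cdc20 (log2 fold change 0.86, SE 0.29), Cenpa (0.89, SE 0.32), Aspm (0.66, SE 0.24), a spindle pole protein, and Rrm2 (0.56, SE 0.23), with limma adjusted p from 0.466 to 0.605. Of the fixed genes, the log2 fold change was 0.33 for Mki67, 0.47 for Top2a, 0.36 for Ccnb1, 0.44 for Mcm5, 0.18 for Rrm1, 0.08 for Pcna and 0.30 for Stmn1. Single mice moved the median: it was 0.25 without AG 1, 0.29 without AG 2, 0.23 without AG_CPI 1 and 0.74 without AG_CPI 2. Without AG_CPI 2, Cenpa and Ube2c passed as higher with Trbv13-3, where 0.314% of all genes were called.

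**Figure D2:**
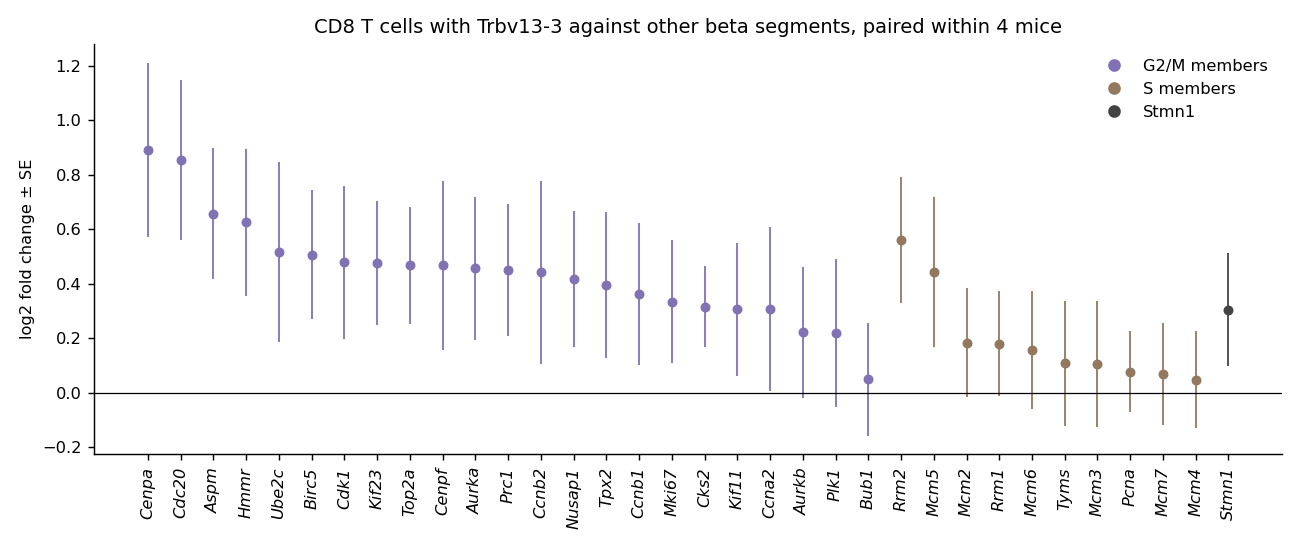
log2 fold change (y axis, with SE) of each member tested, for CD8 T cells with Trbv13-3 against other beta segments, paired within 4 mice. All 34 points lie above 0, none passed the test, and the G2/M genes have a higher median (0.45) than the S genes (0.13).

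In CD4 T cells no member passed the test, and these values rest on 29 to 170 cells per mouse. The G2/M share was 21.1% and 25% in NO_AG mice, 14.1% and 21.1% in AG mice, and 31% and 9.80% in AG_CPI. These intervals overlapped. Stmn1 was at 6.46 and 5.50 UMIs per 10000 in NO_AG mice, 3.37 and 3.13 in AG mice, and 4.85 and 2.45 in AG_CPI. All 4 mice with antigen on lay below both NO_AG mice (log2 fold change for AG -0.80, SE 0.29, limma adjusted p = 0.873). Pcna showed the same order, at 1.64 and 1.41 in NO_AG mice, 0.76 and 0.59 in AG mice, and 0.91 and 0.40 in AG_CPI. Rrm2 was at 0.99 and 1.24 in NO_AG mice, 0.55 and 0.51 in AG mice, and 0.28 and 0.09 in AG_CPI (log2 fold change for AG_CPI against NO_AG -2.19, SE 0.47, limma adjusted p = 0.146). No mouse of one group overlapped another group for this gene.

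Mki67 in CD4 T cells was at 2.93 and 1.38 in NO_AG mice, 0.77 and 1.11 in AG mice, and 2.17 and 0.67 in AG_CPI, and Top2a at 2.79 and 2.52, 1.13 and 1.56, and 2.63 and 0.72. For AG against NO_AG the log2 fold changes were -0.99 for Mki67, -0.89 for Top2a, -1.22 for Hmmr, a hyaluronan-binding spindle protein, -1.02 for Pcna and -1.03 for Rrm1. For AG_CPI against AG they were -0.65 for Cks2, a small CDK-binding protein, 1.04 for Ccnb1, -1.30 for Rrm2, 0.74 for Rrm1 and -0.45 for Tyms. For AG_CPI against NO_AG they were 1.37 for Cenpa, -1.22 for Pcna and -1.09 for Tyms. The members' median for AG against NO_AG, -0.51, was -0.29 without AG 1 and -0.78 without AG 2. Single mice decided the values of AG_CPI. Compared with AG the members' median of -0.02 became -0.76 without AG_CPI 1 and 0.70 without AG_CPI 2, and compared with NO_AG that of -0.46 became -1.21 and 0.12. Over its alternatives the log2 fold change of Ccnb1 against AG ranged from -0.0072 to 2.08. No fold is given for Bub1, a spindle checkpoint kinase with no UMI in CD4 T cells of AG_CPI, or for Aurka, the centrosomal kinase with none in those of NO_AG. Mcm5 ranged from 0.11 to 0.72. limma called 0 of 34 members in each comparison, where it called 0.0385% of 7787 genes in AG against NO_AG, 0.0128% in AG_CPI against AG and 0.141% when AG_CPI was set against NO_AG. At an unadjusted p under 0.05 there were 3, 1 and 7 members, against 5.43%, 3.98% and 11.1% of all genes.

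The Trdv4-led cluster, whose leading gene encodes a delta-chain variable segment of the T cell receptor, showed lower levels of cell cycle genes in both AG mice than in both NO_AG mice for 31 of the 35 genes. Among the genes tested these were 28 of 31 members, against 28.8% of all 7858 genes. Of the 31, 7 reached the filter on low values through the NO_AG mice alone, which favours this order. The share of G2/M-positive cells was 11.1% of 524 cells (95% interval 8.66% to 14.04%) and 11.0% of 364 cells (8.17% to 14.6%) in NO_AG, and 2.08% of 240 cells (0.893% to 4.78%) and 2.75% of 109 cells (0.940% to 7.78%) in AG. The S share was 13.0% and 16.5% in NO_AG and 6.25% and 3.67% in AG. AG_CPI held 6 and 16 cells of this cluster, too few to compare. Stmn1 was at 3.46 and 4.19 UMIs per 10000 in NO_AG and 0.91 and 0.58 in AG (log2 fold change -2.20, SE 0.26, unadjusted p 8.46e-05, limma adjusted p = 0.318). Mki67 was at 0.64 and 1.12 in NO_AG and 0.16 and 0.12 in AG (log2 fold change -1.97, SE 0.33, limma adjusted p = 0.506). Neither pair of groups overlapped.

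The 4 genes of this cluster whose groups were not separated in that way were Bub1, Mcm4, Rrm1 and Tyms. Birc5 was at 0.65 and 0.86 in NO_AG and 0.13 and 0.20 in AG (log2 fold change -1.67), and Ccnb2, a B-type cyclin, at 0.46 and 0.58 and at 0.13 and 0.12 (log2 fold change -1.44). Top2a was at 0.91 and 1.49 in NO_AG and 0.29 and 0.45 in AG (log2 fold change -1.41). Of the S genes, Mcm7 was at 0.47 and 0.58 in NO_AG and 0.24 and 0.035 in AG (log2 fold change -1.52), Mcm3 at 0.47 and 0.56 and at 0.24 and 0.15 (log2 fold change -1.03), and Rrm2 at 0.39 and 0.73 and at 0.22 and 0.27 (log2 fold change -0.86). The log2 fold changes of Ccnb1, Mcm5 and Pcna were -0.70, -0.63 and -0.73. The cells of AG 2 in this cluster had a median of 1930 UMIs, against 2270 to 2825 in the other 3 mice. With each cell thinned to 1500 UMIs the median log2 fold change of the members was -1.09. The summed level of the 12 differentiated keratinocyte markers was 3.84 and 2.95 in NO_AG and 5.42 and 5.70 in AG, with 1 of the 12 at 0 in every mouse. That of 14 monocyte/macrophage markers was 1.38 and 1.48 in NO_AG and 1.67 and 1.77 in AG, and that of the 16 dendritic/Langerhans markers 3.25 and 3.23 in NO_AG and 2.85 and 3.11 in AG, with 3 and 7 of them at 0 in every mouse. The part of these markers in the result was not tested.

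limma called 0 of the 31 members tested in the Trdv4-led cluster, and it called 0 of all 7858 genes (0%). At an unadjusted p under 0.05 there were 20 of 31 members, each lower in AG, against 8.23% of all genes. The median log2 fold change was -1.07 for the members, -1.27 for the G2/M genes and -0.68 for the S genes, and -0.08 for all genes. Of the 31 members, 7 reached the filter on low values through the NO_AG mice alone (Aspm, Aurkb, Ccnb1, Cdk1, Nusap1, Plk1 and Tpx2), where a lower level in AG was favoured by the filter. Without the filter the median over all 35 members was -0.92 and that of all genes -0.06. Without AG 1 the test called 23 members and without AG 2 it called 21, each lower in AG, but it then also called 2170 and 556 of all 7858 genes. Where the cell cycle genes were kept in the clustering, the mean G2/M share of the cluster differed by -2.40 percentage points between AG and NO_AG, against -8.61 otherwise, and the median log2 fold change of the members was -0.56.

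**Figure D3:**
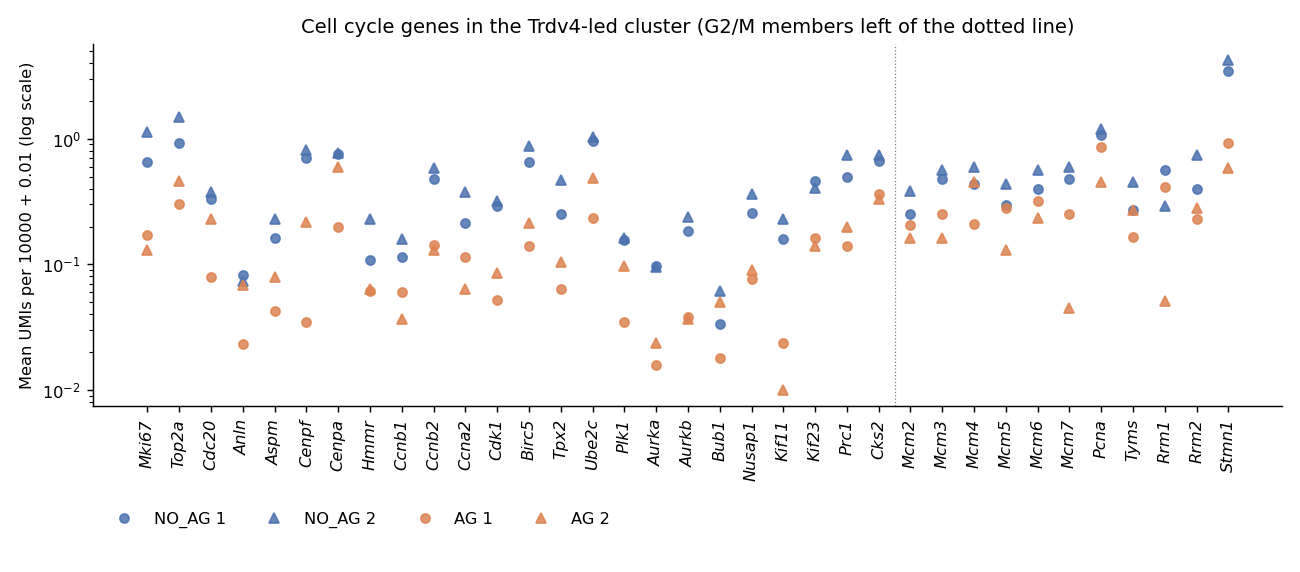
Mean UMIs per 10000 plus 0.01 (log scale, y axis) of each of the 35 genes (x axis) in the Trdv4-led cluster, for the NO_AG mice (blue) and the AG mice (orange); circles are replicate 1 and triangles replicate 2. Both AG mice lie below both NO_AG mice for 31 of the 35 genes. Among the genes tested they do so for 28 of 31 members and for 28.8% of all genes. Of these 31 members, 7 reached the filter on low values through NO_AG alone, which favours this order.

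In keratinocyte-like cells AG 2 was the highest mouse for 34 of the 35 genes, against 18.6% of all genes tested, and AG 1 the lowest for 16, against 18.1%. The share of G2/M-positive cells was 12.0% of 2115 cells and 17.3% of 1582 cells in NO_AG mice, 12.6% of 1056 and 56.9% of 1760 in AG mice, and 21.9% of 187 and 20.4% of 250 in AG_CPI. Mki67 was at 0.71 and 0.93 UMIs per 10000 in NO_AG mice, 0.41 and 2.13 in AG mice, and 0.83 and 1.07 in AG_CPI, so that AG held both the lowest and the highest mouse. Top2a was at 0.87 and 0.92, 0.51 and 2.07, and 1.00 and 0.77 in the same order, and Rrm2 at 0.21 and 0.37, 0.21 and 0.89, and 0.15 and 0.44. Stmn1 ranged from 3.81 to 5.66 and Ccnb1 from 0.17 to 0.48.

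The high share of AG 2 was concentrated in clusters that few other mice filled. Cluster 10 had a G2/M share of 73.2% of 1009 cells in AG 2, of 25% of 32 cells in AG_CPI 1 and of 85.7% of 14 cells in AG_CPI 2. Cluster 38, led by Tchh and Prr9, and cluster 41, led by Sprr1b and Klk6, held cells of AG 2 alone, with G2/M shares of 83.2% and 90.2%. High shares were not limited to AG 2: in NO_AG 2 the share was 75.5% of 102 cells in cluster 33, led by Pthlh and Gjb2, and 96.6% of 58 cells in cluster 6, led by Clca3a2 and Igfbp3. In cluster 2, led by Gnmt and Sfrp1, the share was 20.7% and 13.4% in NO_AG and 22.2% and 22.4% in AG, so that the AG mice lay together there. In clusters 8, 9 and 24, the others of this class with at least 30 cells of both AG mice, AG 2 was higher. The share in AG was 1.65% of 303 cells and 14.98% of 207 in cluster 8, led by Defb6 and Cst6, and 24.3% of 173 and 63.2% of 38 in cluster 24. In cluster 9, led by Fst and Sostdc1, it was 13.5% and 12.2% in NO_AG mice, 14.9% and 37.0% in AG mice, and 24.4% and 23.8% in AG_CPI. Without cluster 10 the share of AG 2 was 35.02% of 751 cells, still above the other 5 mice, which then had 12.0% to 21.3%.

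**Figure D4:**
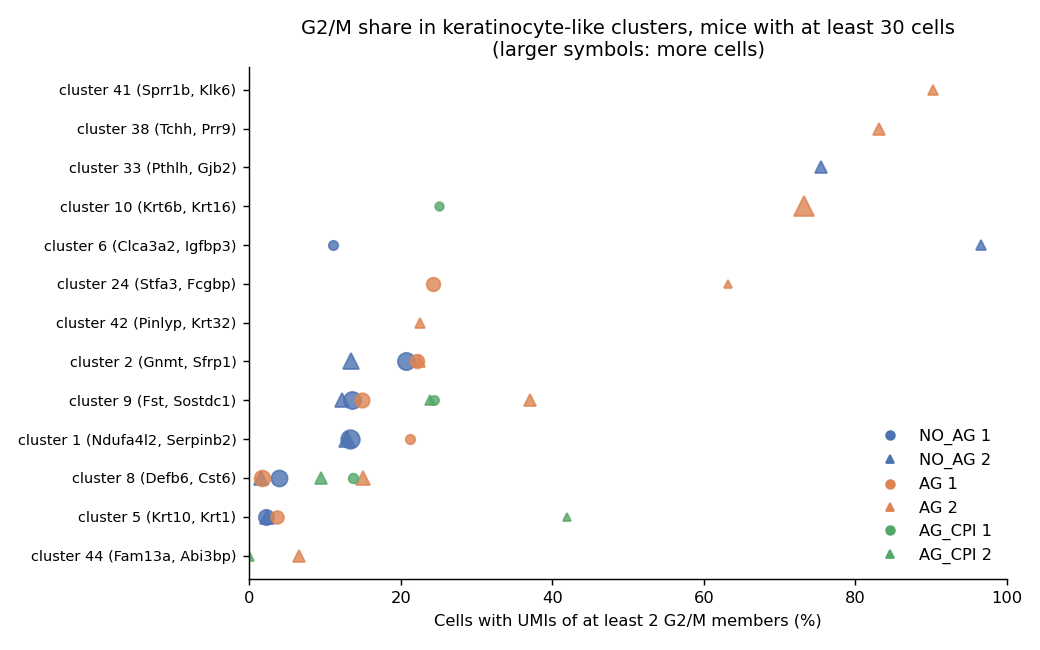
Percentage of cells with UMIs of at least 2 G2/M genes (x axis) in each keratinocyte-like cluster (rows, with their 2 leading genes), for mice with at least 30 cells of the cluster; colours are groups, symbols are replicates and larger symbols hold more cells. Cluster 10 is mostly AG 2, at 73.2%, and AG 2 lies above AG 1 in clusters 8, 9 and 24 but beside it in cluster 2, at 22.4% and 22.2%.

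Some lists of markers of other cells were also highest in AG 2, but not all of them. The summed level of the 15 alpha-beta T markers in keratinocyte-like cells was 0.46 and 0.90 UMIs per 10000 in NO_AG mice, 1.36 and 5.54 in AG mice, and 2.23 and 5.44 in AG_CPI, and none of them was at 0 in every mouse. The summed level of the 16 dendritic/Langerhans markers was 2.71 and 3.30 in NO_AG mice, 7.97 and 24.1 in AG mice, and 10.8 and 9.81 in AG_CPI. The 14 monocyte/macrophage markers summed to 56.49 and 46.35 in NO_AG mice, 57.03 and 37.59 in AG mice, and 33.56 and 31.88 in AG_CPI. This sum was lower in AG 2 than in AG 1 and both NO_AG mice. The summed level of 11 basal keratinocyte markers was 249.4 and 256.6 in NO_AG mice, 235.9 and 149.4 in AG mice, and 197.6 and 148.3 in AG_CPI. Keratinocyte-like cells of AG 2 had a median of 2354 UMIs, against 5347 to 6809 in NO_AG and AG 1 and 3613 and 2660 in AG_CPI. AG_CPI 2 was thus near AG 2 in its alpha-beta T and basal keratinocyte sums and in its median UMIs, with a G2/M share of 20.4%. With each cell thinned to 1500 UMIs the members' median log2 fold change for AG against NO_AG was 0.33, against 0.32 unthinned. The part of the other markers in the result was not tested.

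Of the members in keratinocyte-like cells, 7 of 35 lay higher in both AG mice than in both NO_AG mice, Cenpa and Mcm6 among them, near the 17.2% of all genes tested that did. Cenpa was at 0.70 and 0.63 in NO_AG mice, 0.83 and 1.26 in AG mice, and 0.98 and 0.79 in AG_CPI (log2 fold change for AG 0.59, SE 0.21, limma adjusted p = 0.411). Mcm6 was at 0.28 and 0.34, 0.41 and 0.53, and 0.20 and 0.34 (log2 fold change for AG 0.50, SE 0.21). Mcm2, another helicase subunit, was at 0.14 and 0.18 in NO_AG mice, 0.17 and 0.30 in AG mice, and 0.06 and 0.03 in AG_CPI. Both AG_CPI mice lay below the other 4 (log2 fold change against AG -1.23, SE 0.22, limma adjusted p = 0.432; against NO_AG -0.85, SE 0.22, limma adjusted p = 0.148). Aurkb was at 0.17 and 0.16, 0.14 and 0.25, and 0.08 and 0.08, and so also lowest in both AG_CPI mice. The log2 fold changes for AG against NO_AG were 0.35 for Cks2, 0.41 for Ccnb2, 0.55 for Mcm3, 0.44 for Mcm5 and 0.12 for Pcna. For AG_CPI against AG they were -0.67 for Aurkb, -0.84 for Cdk1, the mitotic kinase, -0.39 for Cdc20, -0.67 for Mcm6 and -0.74 for Mcm5, and for AG_CPI against NO_AG they were -0.53 for Aurkb, -0.52 for Cdk1, 0.36 for Cenpa, -0.31 for Tyms and -0.22 for Mcm7.

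limma called 0 of 35 members in keratinocyte-like cells in each comparison. It called 0.46% of 8269 genes in AG against NO_AG, 0% in AG_CPI against AG and 0.677% when AG_CPI was set against NO_AG. At an unadjusted p under 0.05 there were 2, 7 and 2 members, against 9.19%, 9.6% and 16.9% of all genes. The median log2 fold change of the members was 0.32, -0.34 and -0.06, and that of all genes -0.04, -0.06 and -0.08. Without AG 1 the members' median for AG against NO_AG was 0.71 and Ube2c, Ccna2, Mki67 and Tpx2 passed as higher in AG, where 2.84% of all genes were called. Without AG 2 that median was -0.10 and no member passed, and without cluster 10 it was 0.08. When AG_CPI was compared with AG the median was -0.79 without AG 1 and 0.05 without AG 2.

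**Figure D5:**
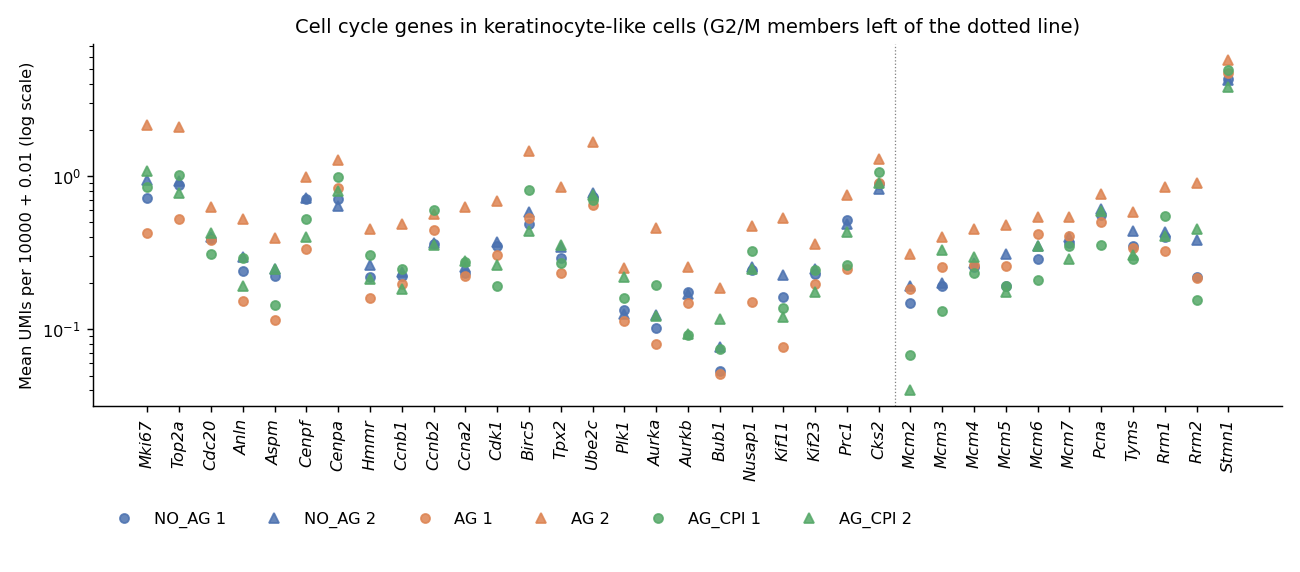
Mean UMIs per 10000 plus 0.01 (log scale, y axis) of each of the 35 genes (x axis) in keratinocyte-like cells, by group (colour) and replicate (circles 1, triangles 2). AG 2 is the highest mouse for 34 of the 35 genes.

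Among basal keratinocyte-like cells, defined by Krt5, Krt14, Krt15 and other basal markers, both AG mice lay above both NO_AG mice for 19 of the 35 genes, against 21.7% of all 7977 genes tested. Most of these cells came from cluster 1 in NO_AG and from cluster 24 in AG and AG_CPI. The share of G2/M-positive cells was 13.3% of 618 cells and 13.4% of 403 cells in NO_AG mice, 23.6% of 220 and 58.5% of 41 in AG mice, and 32.0% of 25 and 25% of 12 in AG_CPI. Cks2 was at 1.18 and 1.10 UMIs per 10000 in NO_AG mice, 1.83 and 2.95 in AG mice, and 1.70 and 2.19 in AG_CPI (log2 fold change for AG 0.94, SE 0.27, limma adjusted p = 0.505). Ccnb2 was at 0.52 and 0.56, 1.12 and 1.26, and 0.86 and 1.30 (log2 fold change for AG 0.99, SE 0.28), and Cenpa at 0.90 and 0.74, 1.80 and 1.67, and 1.23 and 2.21 (0.97, SE 0.31). For these 3 genes all 4 mice with antigen on lay above both NO_AG mice. Mki67 was at 0.94 and 1.16, 0.83 and 2.73, and 1.25 and 1.28, and Top2a at 1.34 and 1.30, 0.96 and 2.43, and 1.70 and 0.91, with overlapping groups.

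Markers of other cells differed between the AG and NO_AG mice here in both directions. Summed over the 16 dendritic/Langerhans markers, the level was 1.84 and 1.53 in NO_AG mice, 19.3 and 17.1 in AG mice, and 4.82 and 28.2 in AG_CPI, with 9 of the 16 at 0 in every mouse. That of the 15 alpha-beta T markers was 0.15 and 0.076 in NO_AG mice, 0.73 and 1.37 in AG mice, and 3.07 and 7.39 in AG_CPI, and that of the 12 differentiated keratinocyte markers 79.0 and 83.7 in NO_AG mice, 147.5 and 190.3 in AG mice, and 154.0 and 130.7 in AG_CPI. The 14 monocyte/macrophage markers were lower in AG, at 42.9 and 38.4 in NO_AG mice, 33.7 and 24.4 in AG mice, and 22.1 and 34.1 in AG_CPI. Their part in the result was not tested.

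Of the S genes, 3 had no UMI in the basal keratinocyte-like cells of AG_CPI, where 25 and 12 cells were measured. Mcm3 was at 0.15 and 0.14 in NO_AG and 0.34 and 0.38 in AG, Mcm5 at 0.11 and 0.19 and at 0.28 and 0.48, and Rrm2 at 0.22 and 0.18 and at 0.23 and 0.57, with no UMI in either AG_CPI mouse, so no fold is stated. At the limit of 3 counts, 0 of 25 cells allows a share of cells with a UMI of up to 12.0%, which bounds detection and not expression. Tyms was at 0.38 and 0.45 in NO_AG mice, 0.47 and 0.72 in AG mice, and 0.094 and 0.11 in AG_CPI, both AG_CPI mice below the other 4. Ube2c was at 1.14 and 1.04, 1.59 and 2.96, and 0.51 and 0.99, and Birc5 at 0.74 and 0.78, 1.11 and 2.86, and 0.83 and 0.69. Against AG the AG_CPI mice had log2 fold changes of -1.58 for Ube2c and -1.24 for Birc5, and against NO_AG of 0.80 for Cenpa and 0.73 for Ccnb2. Plk1, the polo-like kinase, was at 0 and 0.096 and Cdk1 at 0.29 and 0.096 in AG_CPI, against 0.24 and 0.39 and 0.45 and 0.61 in AG. For AG against NO_AG the log2 fold changes were 0.89 for Mcm3, 0.92 for Mcm5 and 0.80 for Mcm6. Ccnb1 ranged from 0.19 to 1.02, Pcna from 0.38 to 0.84 and Stmn1 from 1.87 to 6.41.

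limma called 0 of 35 members in basal keratinocyte-like cells in each comparison. It called 0.213% of 7977 genes in AG against NO_AG, 0% in AG_CPI against AG and 0.213% when AG_CPI was set against NO_AG. At an unadjusted p under 0.05 there were 7, 14 and 7 members, against 5.47%, 15% and 18.7% of all genes. The median log2 fold change of the members was 0.56, -1.08 and -0.43, and that of all genes -0.09, -0.23 and -0.31. After thinning to 1500 UMIs per cell the members' medians were 0.43, -1.30 and -0.91, and those of all genes -0.21, -0.64 and -0.84. Without AG_CPI 1 the test called 12 members as lower for AG_CPI against AG and 11 (3 of them higher) for AG_CPI against NO_AG, where 18.7% and 20.7% of all genes were called. Without AG_CPI 2 it called 6 as lower and 4 (1 of them higher), where 7.92% and 13.5% of all genes were called. The median for AG against NO_AG was 0.95 without AG 1, 0.18 without AG 2 and 1.28 with cell cycle genes kept in clustering. The median of AG_CPI compared with AG was -0.62 without AG 2, -0.69 without AG_CPI 2 and -0.59 with stricter cell filters, and that of AG_CPI compared with NO_AG was -0.21 without AG_CPI 2, 0.06 with stricter cell filters and -1.002 with summed UMIs.

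Monocyte/macrophage-like cells held few G2/M-positive cells, and Stmn1 was lower in both AG_CPI mice than in both AG mice without passing the test. The share of G2/M-positive cells was 1.23% of 162 cells and 3.31% of 543 cells in AG, and 0.813% of 246 and 0% of 203 in AG_CPI. At the limit of 3 counts, 0 of 203 cells allows a share of up to 1.48%, and the Wilson upper bound is 1.86%. The S share was 7.41% and 1.47% in AG and 2.44% and 0.49% in AG_CPI. NO_AG held 7 and 3 such cells and was not compared. Stmn1 was at 0.46 and 0.31 UMIs per 10000 in AG and 0.12 and 0.07 in AG_CPI (log2 fold change -1.32, SE 0.27, unadjusted p 0.000248, limma adjusted p = 0.0568). The groups did not overlap, and the gene passed in 7 of 16 alternative settings, among them those without AG 1, AG 2 or AG_CPI 1. Without AG 2, Mcm6 and Mcm7 passed as well, where 5.97% of all genes were called. Birc5 was at 0.15 and 0.10 in AG and 0.03 and 0.03 in AG_CPI (log2 fold change -0.79, SE 0.25), Cks2 at 0.39 and 0.37 and at 0.25 and 0.20 (-0.55, SE 0.24), and Mcm6 at 0.27 and 0.12 and at 0.08 and 0.06 (-0.75, SE 0.29). The log2 fold changes were -0.17 for Cenpa, -0.72 for Mcm7, -0.37 for Rrm1, 0.09 for Mki67 and -0.13 for Pcna, and Top2a, Ccnb1, Mcm5 and Rrm2 did not reach the filter on low values.

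Of the 35 members 11 were tested in these cells and 0 were called by limma, against 0.362% of 6636 genes. There were 5 at an unadjusted p under 0.05, each lower in AG_CPI, against 7.25% of all genes. Birc5, Mcm6 and Rrm1 reached the filter on low values through the AG mice alone, so that a lower level in AG_CPI was favoured by the filter. The median log2 fold change was -0.37 for the members and -0.00097 for all genes, and -0.61 and -0.03 after thinning. Without the filter it was -0.32 over all 35 members. The summed level of the 15 alpha-beta T markers in these cells was 1.44 and 1.39 in AG and 2.34 and 1.14 in AG_CPI, so that those groups overlapped. For the 12 differentiated keratinocyte markers it was 3.20 and 5.73 in AG and 2.15 and 2.52 in AG_CPI, lower in both AG_CPI mice like Stmn1, with 1 of the 12 at 0 in every mouse. Their part in the result was not tested.

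In dendritic/Langerhans-like cells Cenpa was the 1 member called in any comparison, as higher in AG_CPI, but the cells compared came from different clusters and the call was lost within 1 cluster. The class joins cluster 21, led by the Langerhans cell gene Cd207, and cluster 23, led by Retnla, Mgl2 and F13a1, whose 10 leading genes hold Ccl22 of the dendritic list and Mrc1 of the macrophage list, and also Folr2 and Pf4, known from macrophages. Cluster 21 held 221 and 135 cells of NO_AG and none of AG_CPI, and cluster 23 held 46 and 25 cells of NO_AG mice, 39 and 93 of AG mice, and 21 and 36 of AG_CPI. Cenpa was at 0.24 and 0.36 UMIs per 10000 in NO_AG mice, 0.61 and 1.35 in AG mice, and 1.80 and 0.68 in AG_CPI. All 4 mice with antigen on lay above both NO_AG mice (log2 fold change for AG_CPI 1.72, SE 0.47, limma adjusted p = 0.0435; for AG 1.47, SE 0.47, limma adjusted p = 0.189). In cluster 23 alone, an alternative chosen after seeing the data, Cenpa was at 0.22 and 0.84 in NO_AG mice, 0.63 and 1.45 in AG mice, and 1.80 and 0.68 in AG_CPI, so that the groups overlapped (log2 fold change for AG_CPI 1.20, SE 0.53, limma adjusted p = 0.385). Over the whole class the 14 monocyte/macrophage markers summed to 34.4 and 54.1 in NO_AG mice, 76.4 and 64.4 in AG mice, and 65.8 and 92.1 in AG_CPI. The 16 dendritic/Langerhans markers summed to 806.7 and 865.0 in NO_AG mice, 749.5 and 607.5 in AG mice, and 517.2 and 497.1 in AG_CPI. In AG_CPI the dendritic/Langerhans list alone does not set these cells apart from the monocyte/macrophage-like cells, where it summed to 554.9 and 613.2, while the monocyte/macrophage list summed to 282.2 and 293.8 there. Cenpa was 1 of 30 members tested, where 12.1% of 7927 genes were called in the same comparison. The call for AG_CPI was kept in 4 of 19 alternative settings and was lost, for example, without either AG mouse, without either NO_AG mouse, without AG_CPI 1 and under both other pseudocounts, with limma adjusted p from 0.00438 to 0.385 over the 19 settings.

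None of the other 29 members tested was called in dendritic/Langerhans-like cells with all 6 mice, and the other 5 did not reach the filter on low values. Mki67 was at 0.32 and 0.37 in NO_AG mice, 0.17 and 0.54 in AG mice, and 0.27 and 0.29 in AG_CPI, and the G2/M share ranged from 5.56% to 14.3%, with 21 and 36 cells in AG_CPI. Top2a ranged from 0.32 to 1.10, with AG_CPI 1 the highest, Pcna from 0.42 to 0.74, Mcm5 from 0.08 to 0.31, Rrm2 from 0 to 0.20 and Stmn1 from 0.67 to 2.09. Nusap1, a spindle-associated protein, was at 0.09 and 0.04 in NO_AG mice, 0.06 and 0.05 in AG mice, and 0.21 and 0.18 in AG_CPI (log2 fold change against AG 0.96, SE 0.35), and like Kif11 it reached the filter on low values through AG_CPI alone, which favours a higher level there. Other log2 fold changes were 0.71 for Aurka, -0.72 for Cdc20, 0.50 for Mcm4, 0.56 for Mcm6 and 0.50 for Mcm5 for AG against NO_AG, and 1.00 for Tpx2, a spindle assembly factor, 0.86 for Prc1, 0.97 for Rrm1, 0.70 for Mcm6 and -0.67 for Rrm2 for AG_CPI against AG. Some of these turned in direction over the alternatives. For AG against NO_AG the range was -0.81 to 1.20 for Mcm4 and -0.010 to 1.14 for Mcm6. For AG_CPI against AG it was -0.41 to 1.28 for Mcm6.

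limma called 0 of 30 members for AG against NO_AG in these cells (all genes 1.83%) and 0 for AG_CPI against AG (all genes 0.391%). At an unadjusted p under 0.05 there were 1, 2 and 4 members in the 3 comparisons, against 12.9%, 15.8% and 27.7% of all genes. The median log2 fold change of the members was 0.06, 0.46 and 0.45, and that of all genes -0.01, -0.13 and -0.13. After thinning to 1500 UMIs per cell the members' medians were 0.10, 0.09 and 0.05, and those of all genes -0.12, -0.44 and -0.58. AG_CPI 1 carried these medians: without it they were -0.03 for AG_CPI compared with AG and -0.0042 compared with NO_AG, and without AG_CPI 2 they were 0.78 and 0.83. Without AG_CPI 2 the test called 6 members as higher in each of these comparisons, where 8.67% and 25% of all genes were called. Without AG_CPI 1 it called 0 and 1, where 17.9% of all genes were called in the second. Without either AG_CPI mouse Cenpa passed for AG against NO_AG, where 6.55% and 6.67% of all genes were called. In cluster 23 alone 0 of 29 members were called in any comparison, where 0.388% of all genes were called for AG_CPI compared with NO_AG.

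Among 103 other cell cycle genes, those that passed in CD8 T cells were 2 D-type cyclins and a CDK inhibitor. Of 91 tested there, 1 was called for AG against NO_AG and 3 for AG_CPI against NO_AG, each lower with antigen on. Of all genes 3% and 4.42% were called in the same comparisons. Cdkn1a, which encodes the CDK inhibitor p21, was at 1.39 and 1.07 UMIs per 10000 in NO_AG mice, 0.57 and 0.38 in AG mice, and 0.32 and 0.40 in AG_CPI, and fell by 1.10 on the log2 scale in AG (SE 0.22, limma adjusted p = 0.0207) and by 1.42 in AG_CPI (SE 0.22, limma adjusted p = 0.00331). Ccnd2, a D-type cyclin of G1, was at 4.39 and 4.19 in NO_AG mice, 3.03 and 2.63 in AG mice, and 2.23 and 2.78 in AG_CPI, and fell by 0.64 in AG_CPI (SE 0.16, limma adjusted p = 0.0466). Ccnd1, also a D-type cyclin, fell by 1.13 (SE 0.23, limma adjusted p = 0.0148) from 0.19 and 0.12 in NO_AG to 0.0064 and 0.016 in AG_CPI. It reached the filter on low values through the NO_AG mice alone, which favours a fall. No mouse with antigen on overlapped the NO_AG mice for these 3 genes. As stated above, the alpha-beta T-like clusters behind the CD8 T cells differed in makeup between groups. Whether these 3 genes differ within a single cluster was not tested.

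Ccnd2 passed in 2 more classes, in opposite directions. The dendritic/Langerhans-like call was lost within a single cluster, and the keratinocyte-like call was not tested within clusters. In keratinocyte-like cells Ccnd2 was at 3.14 and 2.92 in NO_AG mice, 2.34 and 1.73 in AG mice, and 0.96 and 1.14 in AG_CPI, and fell by 1.45 on the log2 scale in AG_CPI against NO_AG (SE 0.21, limma adjusted p = 0.0397), the 1 gene called of 85 tested. Of all genes 0.677% were called in the same comparison. Basal keratinocyte-like cells were 618 of 2115 and 403 of 1582 of these cells in NO_AG, and 25 of 187 and 12 of 250 in AG_CPI. The part of this difference in the value was not tested. In dendritic/Langerhans-like cells Ccnd2 was at 0.51 and 0.37 in NO_AG mice, 0.96 and 2.15 in AG mice, and 2.53 and 2.32 in AG_CPI, and had a log2 fold change of 2.32 in AG_CPI against NO_AG (SE 0.35, limma adjusted p = 0.00346). There Tuba1b, an alpha-tubulin (log2 fold change 0.97, limma adjusted p = 0.0181), and Hmgb2, a chromatin protein (1.02, limma adjusted p = 0.0469), passed too, which makes 3 of 65 tested, where 12.1% of all genes were called. These values compare cluster 21 and cluster 23 cells of NO_AG with cluster 23 cells of AG_CPI. In cluster 23 alone none of the 3 genes passed, with log2 fold changes of 1.503, 0.77 and 0.71 (limma adjusted p = 0.0964, 0.293 and 0.481). In CD4 T cells, the Trdv4-led cluster, basal keratinocyte-like and monocyte/macrophage-like cells 0 of the 103 genes were called by limma, with 1 to 38 of those tested at an unadjusted p under 0.05. In the Trdv4-led cluster 38 of 69 had an unadjusted p under 0.05, with a median log2 fold change of -0.72.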

How the data were processed

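Single-cell 5′ RNA libraries of skin from 6 mice (2 each of NO_AG, AG and AG_CPI, labelled as biological replicates) were analysed. Per the submitters' processing notes, Cell Ranger 3.1 and the mm10 build were used. The deposited values were log10 values: on the log10 scale 100% of them correspond to whole UMIs of 10000 per cell plus 1, and under the natural log 65.7% to 68.3% do. The planned tests assumed counts, so limma 3.58.1 (R 4.3.3) was used on log2 means instead.

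Cells with under 200 genes or over 20% mitochondrial UMIs (51) and Scrublet doublets (663) were removed, leaving 20464 of 21178. Clustering used scanpy 1.11.5 with 30 components, 15 neighbours and Leiden resolution 1. Clusters needed 3 markers for a name, and ties were settled by the highest-ranked marker after the leading genes had been seen. The planned gamma-delta class was replaced by the Trdv4-led cluster.

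Class means per mouse (at least 10 cells) were scaled by trimmed means of M values, increased by a pseudocount of 0.1 and fitted with all 3 groups. A gene needed 10 UMIs and a mean of 0.1 per 10000 in 2 libraries. A fold change on this log2(value + pseudocount) scale understates that of low genes. The Benjamini-Hochberg threshold was 0.05 over all genes tested. Beta segments were compared with the mouse as a block. Scripts were tested on simulated data.

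The members and lists were chosen with earlier results of these data known. Named are 7 fixed members per class, the members called or else the 3 G2/M and 3 S members of smallest p, and the other genes called. Alternatives were the scaling, filters, pseudocounts, doublets, clustering, thinning, the replicate number as a block and leaving out each mouse. Total UMIs of 5903724 to 24656382 per library limit the precision of low genes.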

Additional observations from a re-analysis of the deposited data

Results flagged for a closer look

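A Ddx3y UMI was found in 16.0% of the 513 cells outside the alpha-beta T-like clusters in AG_CPI 1 and in 0 such cells of the other 5 mice, a gene outside the comparisons. Xist had a UMI in 2.14% of these cells in AG_CPI 1 and in 66.4% to 84.9% in the other 5 mice. By both genes AG_CPI 1 appears to differ in sex from the other mice.

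Unnamed clusters entered no comparison between groups, though they count among all cells, and 7 of the 14 had a G2/M share above 50%, a limit chosen after the shares were seen. Cluster 17, led by Cldn10 and Msx1, which encodes a homeobox protein of the hair matrix, had a G2/M share of 67.8% of 804 cells. It was 59.6% and 66.3% in NO_AG, 61.3% and 72.9% in AG, and 33.3% of 3 cells and 88.5% in AG_CPI. Cluster 31, with Shh, Wnt10b and Krt25 among its leading genes, had a G2/M share of 84.9% of 86 cells, from NO_AG 2 (90.3%) and AG 2 (70.8%). Esco2 and Pclaf, which are also cell cycle genes, are among its leading genes. The others were cluster 19 (60.5% of 43 cells), cluster 20 (84.6% of 117), cluster 35 (92.3% of 13), cluster 39 (59.3% of 54) and cluster 45 (56.4% of 39). Clusters 19 and 35 came from 1 NO_AG mouse each, cluster 20 from both NO_AG mice, and clusters 39 and 45 from AG 2.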

How the results depend on the processing

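Most of the reported counts of members called were 0, and most stayed within 1.5 times of the reported value. With 2 mice per group and few genes called, a count of 0 that stays 0 says little of stability. The replicate numbers did not pair the mice (17 correlations of deviations, from -0.228 to 0.0687, 0 above 0.1). With the replicate block, 1 member passed in CD8 T cells for AG against NO_AG (Cenpa), 1 in the Trdv4-led cluster (Stmn1) and 1 in monocyte/macrophage-like cells (Stmn1), where 2.93%, 0.0636% and 0.753% of all genes were called. With only the groups compared in the fit, 1 passed in CD8 T and 2 in basal keratinocyte-like cells for AG_CPI against NO_AG, 1 in dendritic/Langerhans-like cells for AG against NO_AG (5.57%, 4.54% and 6.70% of all genes called), and 0 there for AG_CPI against NO_AG. That last count was also 0 with pseudocounts of 0.5 and 0.02, without the filter on low values, with the deposited scaling, with doublets kept, with stricter cell filters and after thinning. In monocyte/macrophage-like cells 1 member passed with doublets kept, with stricter filters and with summed UMIs (1.06%, 0.557% and 0.426% of all genes called). The causes were not tested. Leaving out each mouse in turn gave 0 to 3 members in CD8 T cells for AG against NO_AG and 0 to 1 for AG_CPI against NO_AG, 0 to 2 for Trbv13-3, and 0 to 23 in the Trdv4-led cluster. In basal keratinocyte-like cells it gave 0 to 12 for AG_CPI against AG and 0 to 11 against NO_AG. In dendritic/Langerhans-like cells it gave 0 to 1 for AG against NO_AG, 0 to 6 for AG_CPI against AG and 0 to 6 against NO_AG. It gave 0 to 4 in keratinocyte-like cells for AG against NO_AG and 0 to 3 in monocyte/macrophage-like cells. Where this left 1 mouse in a group, that mouse was assumed to vary like the other groups. The G2/M share of the Trdv4-led cluster was lower in AG than in NO_AG by a difference of -8.61 percentage points, and of -10.5 without thinning, -6.87 and -7.91 with 1 and 3 members needed, -6.72 with doublets kept, -9.17 with stricter filters and -2.40 with cell cycle genes kept in clustering. Settings chosen after seeing the data called 0 members in keratinocyte-like cells without cluster 10 and 0 in dendritic/Langerhans-like cells with cluster 23 alone. The deposited scaling moved the median of all genes by at most 0.102, and turned the members' median from -0.02 to 0.07 in CD4 T cells for AG_CPI against AG and from 0.06 to -0.03 in dendritic/Langerhans-like cells for AG against NO_AG. The Trdv4-led cluster in AG_CPI and the monocyte/macrophage-like cells in NO_AG were not tested because a mouse held under 10 cells. The pair tests between classes cannot reach 0.05 and say nothing of stability.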
